A study of Bos indicus with 12 samples.

Results

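Integrins are receptors that hold cells to the extracellular matrix and to each other, and each is a pair of 1 alpha and 1 beta chain. The 10 subunits described here are 6 alpha chains (ITGA1, ITGA2, ITGA5, ITGA6, ITGA9, ITGAV) and 4 beta chains (ITGB1, ITGB3, ITGB4, ITGB5). They were taken by symbol from a table of 15178 genes measured in the corpus luteum (CL), and each symbol had 1 row. The CL of 6 pregnant (P) cows was compared with that of 6 non-pregnant (NP) cows on day 18, with 1 library of poly-A RNA for each cow. All were non-lactating, multiparous Bos indicus cows put through the same timed insemination protocol. The P cows were inseminated and had an embryo in the uterine flush at slaughter, whereas the NP cows were, in the study's methods, synchronized and left without insemination. P and NP cows therefore differ in insemination as well as in pregnancy, and these 2 cannot be told apart here. An age or a shared batch is not given in the sources used here.

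The alpha chain decides for the most part which ligand an integrin binds, and the beta chain carries the tail that talin and kindlin hold when the receptor is switched on. Chains reach the cell surface only as pairs. ITGB1 is the partner of many alpha chains, ITGA1 and ITGA2 bind collagen with it, ITGA5 fibronectin, ITGA6 laminin and ITGA9 tenascin C and other ligands. ITGAV pairs with ITGB1, ITGB3 or ITGB5 in receptors for ligands with an RGD motif such as vitronectin and latent TGFB1, and ITGB4 pairs only with ITGA6. The CL is among the most densely vascularized tissues, so steroidogenic cells, endothelial cells, pericytes, fibroblasts and leukocytes all lie against matrix in it.

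The values are normalized counts, that is reads per gene divided by the size factor of the library. They were not divided by gene length, so levels are compared between cows and not between genes. The libraries held 6148184 to 8253360 reads counted on genes in NP cows and 2038858 to 7534503 in P cows. The 3 smallest were all from P cows, cows 01 (3152328 reads), 18 (2589954 reads) and 28 (2038858 reads), so values without them are given for the tested subunits and most gene lists. The steroidogenic markers STAR, CYP11A1, HSD3B1, SCARB1, INHA, FDX1 and PRLR had a summed level of 150132 to 286182 in NP and 184611 to 275219 in P cows. A sum does not give the level of each marker. The list also held LHCGR, which was not found by symbol.

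For the 11907 genes that reached 30 normalized counts in 1 cow or more, log2(value + 1) was compared with limma. Differentially expressed genes (DEGs) had an adjusted p (Benjamini-Hochberg) under 0.05 and a log2 fold change of 0.58 or more in either direction. Of the 10 subunits, 9 passed the filter and ITGA2 did not. In P cows ITGAV, ITGA1, ITGB5 and ITGA6 fell, none of the 9 rose, and 5 were not DEGs. These 4 of 9 (44.4%) stand beside 26.8% of all tested genes that were DEGs, 14.8% lower and 12% higher in P cows. The log2 fold change was negative in 6 of the 9 subunits, with a median of -0.53, against a median of -0.01 over all tested genes. P and NP cows did not overlap in 3 of the 9 (ITGA1, ITGA6 and ITGAV), all lower in P cows. Of all tested genes 13.6% had groups without overlap, and 7.41% were lower in P cows without overlap. When P cows 01, 18 and 28 were left out, ITGAV was the 1 DEG of the 9, beside 11.8% of all tested genes (7.81% lower). With the library total (log2) as a covariate, 0 of the 9 were DEGs by limma, 3 had an unadjusted p below 0.05, and 4.28% of all tested genes were DEGs.

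**Figure D1:**
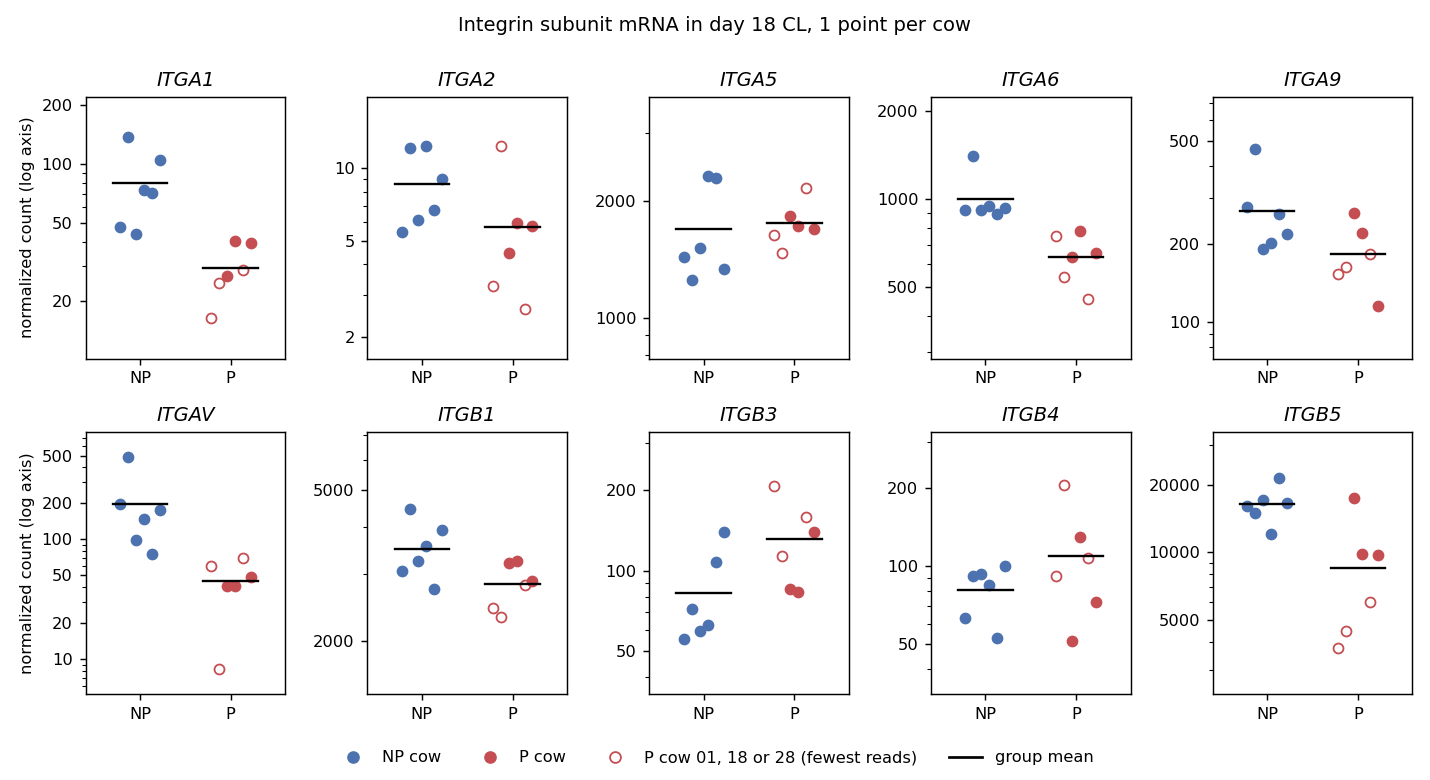
Normalized counts (log axis, a separate scale for each gene) of the 10 integrin subunits, with 1 point for each of 6 NP and 6 P cows and a line at the group mean. Open circles are P cows 01, 18 and 28, the libraries with the fewest reads, and P points lie below all NP points for ITGA1, ITGA6 and ITGAV.

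ITGAV (ENSBTAG00000019929), the alpha chain of the RGD receptors, had the largest change of the 9. In NP cows it ranged from 75.4 to 491 normalized counts with a median of 163, and in P cows from 8.23 to 70.6 with a median of 44.8. Every P cow lay below every NP cow. The highest P cow, cow 28 with 27 reads, was close to the lowest NP cow, cow 32 at 75.4. Their 95% exact Poisson intervals, 46.5 to 103 and 60.6 to 92.7 normalized counts, overlapped. The P cows other than cow 18 lay close together, between 40.6 and 70.6, while cow 18 stood lowest at 8.23. That value rests on 4 reads (95% exact Poisson interval 1.09 to 10.2 reads, counting error only). The mean fell from 198 ± 151 in NP to 44.9 ± 21.4 in P cows (SD, n = 6 each). The limma estimate, taken on log2 values, was a 4.22-fold decrease (log2 fold change -2.08, SE 0.48, 95% interval -3.10 to -1.05, limma adjusted p = 0.00535). NP cow 22, at 491, was far above the next NP cow, and without it the log2 fold change was -1.76 (limma adjusted p = 0.0138). Without P cow 18 it was -1.66, and without P cows 01, 18 and 28 it was -1.89 (limma adjusted p = 0.0230), so that ITGAV stayed a DEG in each of these comparisons. With the library total as a covariate it was -1.84 and not a DEG (limma adjusted p = 0.0918).

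The collagen receptor chain ITGA1 (ENSBTAG00000016525) fell in P cows as well. NP cows had 44.1 to 138 normalized counts (median 72.5) and P cows 16.3 to 40.6 (median 27.8). The ranges did not overlap, although the highest P cow and the lowest NP cow were close. The mean fell from 79.9 ± 35.8 to 29.4 ± 9.26 (SD, n = 6 each). The limma estimate, taken on log2 values, was a 2.56-fold decrease (log2 fold change -1.35, SE 0.30, limma adjusted p = 0.00438). The counts were low, with 10 to 48 reads per P library and 58 to 217 per NP library. The log2 fold change without P cows 01, 18 and 28 was -1.05, and ITGA1 was not a DEG (limma adjusted p = 0.0610). In RefSeq, on another assembly, the gene PELO lies within the span of ITGA1, and whether reads were counted by strand is not given in the sources used here. PELO, a ribosome rescue factor, was at 247 ± 28.7 in NP and 256 ± 32.1 in P cows (limma log2 fold change 0.05, adjusted p = 0.776).

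ITGA2, the other collagen-binding alpha chain, was close to the limit of detection. It had 5.44 to 12.3 normalized counts in NP cows (median 7.87) and 2.61 to 12.3 in P cows (median 5.12), from 1 to 19 reads in each library. The highest P cow, cow 18, was as high as the highest NP cow, and the other P cows lay at or below 5.94. ITGA2 did not reach 30 normalized counts in any cow and was therefore left out of the limma comparison above. In RefSeq, on another assembly, the gene MOCS2 overlaps the span of ITGA2. MOCS2 was at 586 ± 94.3 in NP and 570 ± 145 in P cows (limma log2 fold change -0.06, adjusted p = 0.793).

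ITGA6 (ENSBTAG00000017266) binds laminin with either ITGB1 or ITGB4 and was lower in every P cow than in any NP cow. The NP cows had 889 to 1398 normalized counts (median 927) and the P cows 457 to 776 (median 646). All NP cows but cow 22 lay within a narrow band from 889 to 948. The mean fell from 1001 ± 195 to 636 ± 121 (SD, n = 6 each). The limma estimate, taken on log2 values, was a 1.58-fold decrease (log2 fold change -0.66, SE 0.15, 95% interval -0.98 to -0.33, limma adjusted p = 0.00532). This is close to the fold minimum for a DEG. It dropped below that minimum without P cow 28 (-0.57, limma adjusted p = 0.0120), without NP cow 22 (-0.56, limma adjusted p = 0.0123) and without P cows 01, 18 and 28 (-0.52, limma adjusted p = 0.0466).

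ITGB5 (ENSBTAG00000013755), the RGD receptor chain that pairs with ITGAV alone, fell in 5 of 6 P cows to values below every NP cow. NP cows had 12073 to 21488 normalized counts (median 16385). Among the P cows, cow 01 had 3754, cow 18 had 4487, cow 28 had 6031, cow 29 had 9726, cow 27 had 9800 and cow 19 had 17509. Cow 19 was thus higher than all NP cows but cow 32, and the 3 lowest P cows were the 3 with the fewest reads. The mean fell from 16410 ± 3078 to 8551 ± 5081 (SD, n = 6 each). The limma estimate, taken on log2 values, was a 2.17-fold decrease (log2 fold change -1.12, SE 0.31, 95% interval -1.78 to -0.46, limma adjusted p = 0.0132). Among P cows the highest value was 4.66 times the lowest, against 1.78 times among NP cows. Leaving out P cows 01, 18 and 28 brought the log2 fold change to -0.45, and ITGB5 was not a DEG (limma adjusted p = 0.222). With every library thinned to 2038858 reads, a setting chosen after the data were seen, it was -1.14 (limma adjusted p = 0.0125). Thinning evens out counting error only. As ITGB5 had 2182 reads or more in each P library, this setting could hardly move its values.

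Some of the subunits were not DEGs, and for these the interval of the difference says how large a change the data allow. ITGB1, the common partner of 6 of the alpha chains here, had 2744 to 4450 normalized counts in NP cows (median 3403) and 2319 to 3261 in P cows (median 2850). All 6 P cows lay below the NP median, but the ranges overlapped. Its log2 fold change was -0.30 (95% interval -0.61 to 0.00, limma adjusted p = 0.111). Without P cows 01, 18 and 28 it was -0.15 (limma adjusted p = 0.554).

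ITGA9 had 192 to 463 normalized counts in NP cows (median 239) and 115 to 263 in P cows (median 173). The P range overlapped that of the NP cows, and 5 of 6 P cows were below the NP median. The log2 fold change was -0.53 (95% interval -1.02 to -0.05, limma adjusted p = 0.0808). It passed as a DEG without P cow 19 (-0.65, limma adjusted p = 0.0359) and with all libraries thinned to the smallest (-0.62, limma adjusted p = 0.0410). Without NP cow 22 the log2 fold change was -0.36 (limma adjusted p = 0.183), and without P cows 01, 18 and 28 it was -0.44 (limma adjusted p = 0.330).

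The fibronectin receptor chain ITGA5 did not separate the groups at all, with 1255 to 2334 normalized counts in NP cows (median 1475) and 1470 to 2167 in P cows (median 1710). All P values lay inside the NP range. The log2 fold change was 0.09, with a 95% interval of -0.27 to 0.45 (limma adjusted p = 0.709), and its sign turned to -0.01 with upper quartile scaling. Without P cows 01, 18 and 28 the log2 fold change was 0.09 (limma adjusted p = 0.783).

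ITGB3, the beta chain of the vitronectin receptor and of the platelet fibrinogen receptor, had the highest positive value of the 9. NP cows had 55.2 to 140 normalized counts (median 67.2) and P cows 83.1 to 207 (median 126). All 6 P cows lay above the NP median, and NP cows 32 and 42 reached into the P range. The log2 fold change was 0.67 (SE 0.27, 95% interval 0.09 to 1.25, limma adjusted p = 0.0669), so ITGB3 was not a DEG. It became one when P cow 19 (0.78, limma adjusted p = 0.0404), P cow 27 (0.78, limma adjusted p = 0.0381) or NP cow 42 (0.84, limma adjusted p = 0.0252) was left out. When P cows 01, 18 and 28 were left out it was 0.35 (limma adjusted p = 0.447).

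ITGB4, the chain that joins laminin receptors to keratin filaments in hemidesmosomes, spread more among P cows (51.4 to 206 normalized counts, median 99.2) than among NP cows (52.8 to 100.1, median 88.4). Cow 18 had the highest P value and cow 19 the lowest. The log2 fold change was 0.33 (95% interval -0.27 to 0.93, limma adjusted p = 0.374), and it was -0.01 without P cows 01, 18 and 28.

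**Figure D2:**
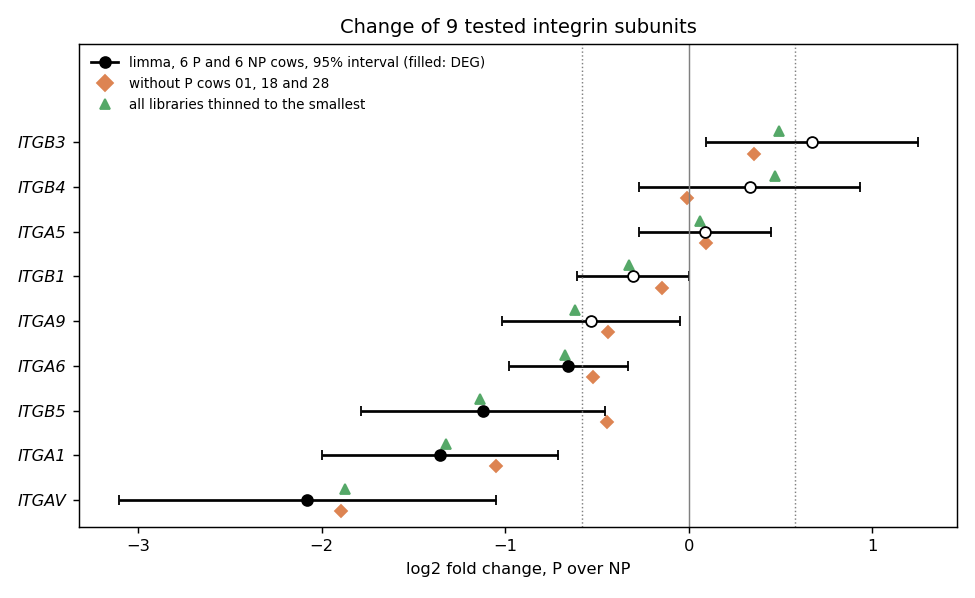
Log2 fold change (P over NP) of the 9 tested subunits, with circles for limma on 6 P and 6 NP cows, bars for the 95% interval, filled circles for DEGs and dotted lines at the fold minimum of 0.58. Diamonds leave out P cows 01, 18 and 28 and triangles use libraries thinned to the smallest, and ITGAV stays at -1.89 and -1.88 in these 2 settings while ITGB5 moves from -1.12 to -0.45 without the 3 cows.

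Markers of the cells that can carry these receptors were compared as well, and their counts are to be read against the 26.8% of all tested genes that were DEGs. In bulk tissue, fewer cells of a type and less RNA per cell cannot be told apart. Of 10 endothelial markers 2 (20%) fell, PECAM1 (376 ± 179 to 71.5 ± 48.4, log2 fold change -2.56, limma adjusted p = 0.00134) and CDH5 (log2 fold change -1.19, limma adjusted p = 0.00218), both adhesion molecules of endothelial junctions, and the summed level of the list was 6418 to 11342 in NP and 4028 to 10100 in P cows. Of 8 pericyte and smooth muscle markers 4 (50%) were DEGs, of which 3 fell (MCAM, PDGFRB and CSPG4, at log2 fold changes of -1.58, -0.62 and -0.72) and MYH11 rose (0.92), with sums of 5887 to 14677 in NP and 6206 to 15091 in P cows. Of 6 fibroblast markers 2 (33.3%) were DEGs, as LUM fell (-1.55) and PDGFRA rose (0.64), with sums of 28253 to 67923 in NP and 27270 to 61513 in P cows. PECAM1, CDH5, MCAM and LUM were the only DEGs of these 3 lists without P cows 01, 18 and 28. In that setting 11.8% of all tested genes were DEGs (7.81% lower). Some calls were also lost when 1 cow was left out, that of PDGFRB without P cow 27 or 28 or NP cow 22, that of CSPG4 without P cow 18 or NP cow 42, that of MYH11 without P cow 01 or 29 or NP cow 05 or 31, and that of PDGFRA without any 1 of P cows 01, 19, 27, 28 and 29 and NP cows 05, 30, 31 and 32. Of the 7 steroidogenic markers 0 were DEGs by limma and by edgeR with TMM, with 1 at an unadjusted limma p below 0.05, and 1 was a DEG by DESeq2, by limma-voom and by edgeR with upper quartile scaling. None of these markers was at 0 in all cows. Their part in the change of the integrin subunits was not tested.

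Because the chains work as pairs, the balance of partner mRNAs was compared next for 9 known pairs among the 10 subunits. For each cow the log2 ratio of the alpha to the beta chain was taken, and groups were compared by a two-sided exact permutation test with p adjusted over the 9 pairs (the smallest unadjusted p that 6 against 6 cows allow is 0.00216). The scale of each ratio depends on gene length, which cancels in the difference between groups. The alpha chain was lower relative to its partner in P cows in 4 of the 9 pairs, and in no pair was it higher by this test. Pairs share chains, so they are not separate results. All 4 pairs hold ITGAV, ITGA1 or ITGA6, which were themselves DEGs lower in P cows.

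The ratio of ITGAV to ITGB3 changed most. It lay between -0.51 and 2.76 in NP cows and between -3.63 and -1.02 in P cows. The groups did not overlap, and the mean changed from 1.06 ± 1.15 to -1.69 ± 0.99 (SD, n = 6 each), a difference of -2.75 (SE 0.62, exact permutation p = 0.00216, adjusted 0.00974). Against ITGB1 the log2 ratio of ITGAV went from -4.39 ± 0.73 to -6.17 ± 0.99, again without overlap (difference -1.78, SE 0.50, exact permutation p = 0.00216, adjusted 0.00974). Against ITGB5, which fell too, the difference was -0.96 (SE 0.66) and did not pass (exact permutation p = 0.180, adjusted 0.231).

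The ratio of ITGA1 to ITGB1 was -5.53 ± 0.46 in NP and -6.58 ± 0.37 in P cows, and 5 of 6 P cows were below all NP cows (difference -1.05, SE 0.24, exact permutation p = 0.00433, adjusted 0.0130). ITGA6 differed against ITGB4, with a log2 ratio of 3.63 ± 0.35 in NP and 2.64 ± 0.80 in P cows (difference -0.99, SE 0.36, exact permutation p = 0.0173, adjusted 0.0390). This last result was lost when any 1 of P cows 18, 27 and 28 or NP cows 05, 22, 31 and 32 was left out, at differences of -1.02 to -0.74 and adjusted exact permutation p between 0.0536 and 0.0877. Against ITGB1 the ratio of ITGA6 differed by -0.36 and just missed the threshold (exact permutation p = 0.0303, adjusted 0.0545). It passed without P cow 01 (-0.45, adjusted exact permutation p = 0.0195) or without NP cow 42 (-0.41, adjusted exact permutation p = 0.0390).

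The other ITGB1 partners gave no difference that passed. The log2 ratio of ITGA5 to ITGB1 differed by 0.39 (SE 0.25, adjusted exact permutation p = 0.231), that of ITGA9 by -0.23 (SE 0.22, adjusted exact permutation p = 0.368) and that of ITGA2, which rests on few reads, by -0.29 (SE 0.33, adjusted exact permutation p = 0.420). The ratio of ITGA2 passed without P cow 18 (-0.57, adjusted exact permutation p = 0.0438). With all cows, its difference was -0.34 when 0.5 was added in place of 1 and -0.07 when 5 was added (adjusted exact permutation p = 0.364 and 0.829). For the 3 other P cows against the 6 NP cows, the smallest p that the exact permutation test allows is 0.0119, so that 1 pair alone could not pass after adjustment over 9, and 0 passed. ITGAV to ITGB1 was at that smallest exact permutation p (difference -1.75, adjusted 0.0804) and ITGAV to ITGB3 differed by -2.25 (exact permutation p = 0.0238, adjusted 0.0804), both still without overlap. ITGA1 to ITGB1 then differed by -0.90 and ITGA6 to ITGB1 by -0.37 (exact permutation p = 0.0357 each, adjusted 0.0804), and ITGA6 to ITGB4 by -0.51 (exact permutation p = 0.131, adjusted 0.168).

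**Figure D3:**
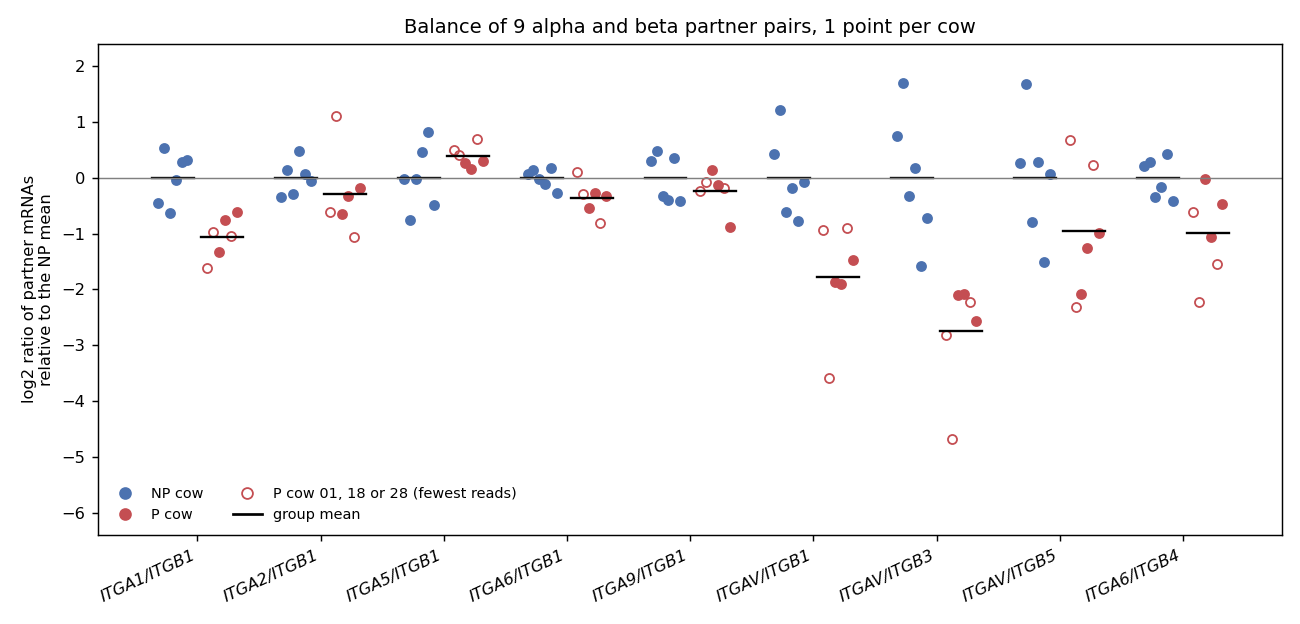
Log2 ratio of alpha to beta chain in 9 partner pairs, set relative to the NP mean of each pair, with 1 point for each cow and a line at the group mean. The 6 P cows lie below all NP cows for ITGAV/ITGB1 and ITGAV/ITGB3, and P cow 18 is lowest in both.

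Within the groups, some subunits varied together from cow to cow. Over deviations of the 12 cows from their group means, ITGA1 and ITGB1 had a Pearson correlation of 0.73, ITGAV and ITGB1 of 0.65 and ITGA6 and ITGB1 of 0.52, whereas ITGB4 and ITGB5 had one of -0.63. These were the highest values and the lowest over all pairs of the 9 tested subunits. Of the other partner pairs, ITGA9 and ITGB1 were at 0.49, ITGAV and ITGB3 at 0.11 and ITGAV and ITGB5 at 0.05. ITGA6 and ITGB4 were at -0.04, and ITGA5 and ITGB1 at -0.27. These values share libraries and their depth and are given as a description. Of 7117 genes with a mean of at least 100, those most like ITGB1 in this measure were APP, the amyloid precursor (r = 0.89), TENM4, a teneurin (r = 0.89), and AVEN, an inhibitor of cell death (r = 0.87). The genes most like ITGA1 were PTPRB, a receptor phosphatase of endothelial cells (r = 0.94), DKK2, a secreted WNT regulator (r = 0.88), and ADAR, an RNA-editing enzyme (r = 0.88). For ITGA6 they were PDCD6IP, which acts in endosomal sorting (r = 0.95), GOLIM4, a Golgi membrane protein (r = 0.93), and RBMX, an RNA-binding protein (r = 0.91). All of these 9 genes but ADAR were also DEGs lower in P cows, at log2 fold changes between -1.33 and -0.69. Of all 11907 tested genes, 14.8% were DEGs lower in P cows. The 9 were picked for their correlation with ITGB1, ITGA1 and ITGA6, and ITGA1 and ITGA6 were themselves DEGs lower in P cows. The count is therefore a description too, and whether it exceeds that of other genes was not tested.

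Among 11 further integrin subunits tested, 4 rose in P cows and 1 fell (45.5%, against 26.8% of all tested genes), and the median log2 fold change was 0.25. The number of DEGs was 3 to 5 when single cows were left out. ITGA2B, the alpha chain that forms the platelet fibrinogen receptor with ITGB3, had 76.8 to 119.8 normalized counts in NP cows (median 88.9) and 169.9 to 296 in P cows (median 253). The groups did not overlap, and its log2 fold change was 1.33 (SE 0.18, limma adjusted p = 0.000729), or 1.03 without P cows 01, 18 and 28 (limma adjusted p = 0.0101). Among platelet markers, ITGA2B was the only one of 6 listed genes analysed here, as GP9, GP1BA, GP6, PF4 and PPBP were not found by symbol. ITGA10, a collagen receptor chain of cartilage, rose from 105 ± 26.4 to 235 ± 109 (log2 fold change 1.08, limma adjusted p = 0.00633) and the leukocyte chain ITGB7 from 55.7 ± 8.95 to 96.8 ± 30 (log2 fold change 0.75, limma adjusted p = 0.0149). ITGA8, a receptor chain for the ligand NPNT, fell from 51.5 ± 27 to 24.2 ± 8.41 (log2 fold change -0.96, limma adjusted p = 0.0424), a call that was lost without any 1 of P cows 18, 19, 27 and 28 and NP cows 05, 22, 32 and 42. ITGA2B was the only DEG of the 11 without P cows 01, 18 and 28, beside 11.8% of all tested genes.

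Among 36 matrix and cell surface ligands tested, 2 rose and 6 fell (22.2%, against 26.8% of all tested genes), and the median log2 fold change was -0.23. The list also held VTN (vitronectin), CCN1, CCN2, CCN3, FGA and LAMA2, which were not found by symbol. Both chains of the main collagen IV of basement membranes, a ligand of ITGA1, fell without overlap between the groups. COL4A2 had 3719 to 7132 normalized counts in NP and 1398 to 3560 in P cows (log2 fold change -1.19, limma adjusted p = 0.00251), and COL4A1 had 8116 to 12932 and 3557 to 7862 (log2 fold change -0.89, limma adjusted p = 0.00466). The laminin chains went both ways, with LAMB3 at 45 ± 12.9 in NP and 155 ± 69.3 in P cows (log2 fold change 1.68, limma adjusted p = 0.00139) and LAMC3 at 67.6 ± 26.4 and 25.6 ± 18.5 (log2 fold change -1.49, limma adjusted p = 0.00738). NPNT, the matrix protein nephronectin, rose (log2 fold change 0.66, limma adjusted p = 0.0418), a call lost with upper quartile scaling and without any 1 of P cows 18, 28 and 29 and NP cows 22, 30, 31 and 32. The ligand list held 5 to 10 DEGs when single cows were left out, with the lowest count without P cow 18, NP cow 22 or NP cow 31. Without P cows 01, 18 and 28, 1 ligand rose and 3 fell, and COL4A1 was not among them (-0.56, limma adjusted p = 0.0803). In that setting 11.8% of all tested genes were DEGs (7.81% lower).

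Inside the cell, proteins that switch integrins on and tie them to actin or keratin moved in both directions. Of 28 activators and tail adaptors 3 rose and 3 fell (21.4%, against 26.8% of all tested genes), with a median log2 fold change of 0.11. PLEC, the plectin that links ITGB4 to keratin filaments, rose from 1827 ± 148 to 3738 ± 932 without overlap (log2 fold change 1.00, limma adjusted p = 0.000961). FERMT1, a kindlin, rose from 126 ± 28.3 to 258 ± 65.2 (log2 fold change 1.02, limma adjusted p = 0.00261), and TNS2, a tensin, rose with a log2 fold change of 0.89 (limma adjusted p = 0.00307). PARVA, which joins the kinase ILK to actin, fell by 0.65 on the log2 scale (limma adjusted p = 0.00685), the tensin TNS3 by 0.75 (limma adjusted p = 0.0169) and RASGRP3, an exchange factor for RAP1, by 0.88 (limma adjusted p = 0.0252). The call of PARVA was lost without P cow 18, and that of RASGRP3 without P cow 28 or any 1 of NP cows 22, 31 and 42. PLEC and FERMT1 were the 2 that remained without P cows 01, 18 and 28, beside 11.8% of all tested genes. Of 9 inhibitors of the tail 0 were DEGs by limma, edgeR and DESeq2, with 2 at an unadjusted limma p below 0.05, 0 or 1 was a DEG when single cows were left out, and 1 was a DEG in thinned libraries (NISCH, chosen after its values were seen, log2 fold change 0.57 in the full libraries).

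Among 30 focal adhesion kinases and scaffolds 2 rose and 6 fell (26.7%, against 26.8% of all tested genes), with a median log2 fold change of -0.10. CRK, an adaptor that binds BCAR1, fell (log2 fold change -0.64, limma adjusted p = 0.00258) and BCAR1 itself rose (log2 fold change 0.84, limma adjusted p = 0.00401). PAK1, a kinase downstream of RAC1, rose at the fold minimum (log2 fold change 0.58, limma adjusted p = 0.0471), a call lost with upper quartile scaling and without any 1 of P cows 01, 28 and 29 and NP cows 22, 30, 31 and 32. Without P cows 01, 18 and 28, 5 of the 30 were DEGs, all lower, among them CRK. In that setting 11.8% of all tested genes were DEGs (7.81% lower).

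Among 22 membrane partners and traffic genes of integrins 1 rose and 5 fell (27.3%, against 26.8% of all tested genes), with a median log2 fold change of -0.32. Without P cows 01, 18 and 28, 1 rose and 2 fell, beside 11.8% DEGs among all tested genes (7.81% lower). RAB7A, which sends endosomes to lysosomes, fell from 1380 ± 127 to 595 ± 203 without overlap (log2 fold change -1.27, limma adjusted p = 0.000834). CD47, which associates with ITGB3, fell with a log2 fold change of -0.88 (limma adjusted p = 0.00256), and the tetraspanin CD9 with one of -1.19 (limma adjusted p = 0.00306). Another tetraspanin, CD81, rose from 4153 ± 646 to 6502 ± 752 (log2 fold change 0.66, limma adjusted p = 0.00409), a call that was lost without NP cow 22. Over the 6 lists together, 12 of 136 genes rose and 21 fell (24.3%, against 26.8% of all tested genes). Of the 136 genes 15 were DEGs without P cows 01, 18 and 28, beside 11.8% of all tested genes.

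**Figure D4:**
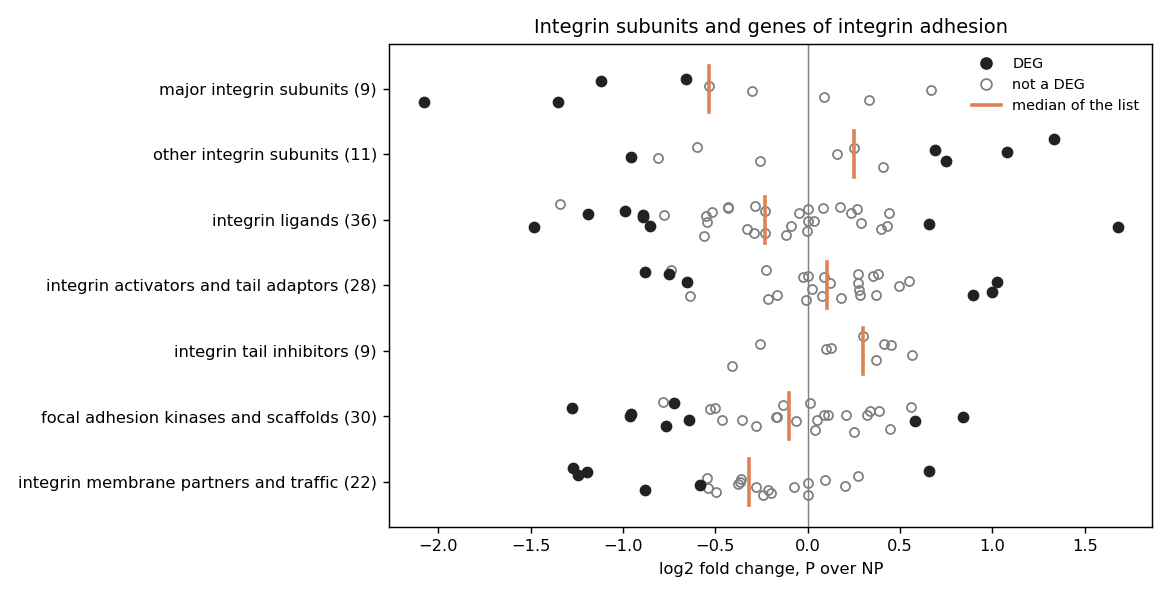
Log2 fold change (P over NP) of each tested gene in the major integrin subunits and in 6 lists of integrin adhesion genes, with the number tested in brackets, filled points for DEGs and a vertical bar at the median of the list. The medians run from -0.53 for the major subunits to 0.30 for the tail inhibitors.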

How the data were processed

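Poly-A RNA of day 18 CL from 6 P and 6 NP cows was sequenced, 1 library per cow. The authors used cutadapt to trim, STAR to map to the genome ARS-UCD1.2 and htseq-count to count reads on Ensembl genes. The submitters' notes give STAR as version 2.4.2a. The deposited signal values are counts scaled by the size factors of DESeq2, with 2 decimals. In every library 99.987% or more of them were whole multiples of 1 step (within 0.0051), so reads could be recovered. The depth is that of reads counted on genes, and intervals on reads cover counting error only. The authors' own fold changes and p-values were not used.

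Limma 3.58.1 in R 4.3.3, with a trend, was run on log2(value + 1) of genes that reached 30 in any cow, and p was adjusted over all 11907 genes tested. This test was checked on simulated data. The alternatives were edgeR 4.0.16 and limma-voom on recovered reads, DESeq2 1.42.0, other scalings, pseudocounts (0.5 and 5) and filters, leaving out cows, and the library total (log2) as a covariate. Partner ratios were compared by exact permutation. The members, the gene lists and the leaving out of P cows 01, 18 and 28 together were chosen with earlier results of these data known. Named genes are all members, up to 3 DEGs of each list with the smallest p in each direction, called markers, and the 3 genes most like ITGB1, ITGA1 and ITGA6, and the results of some of these are not reported here. The sequence description planned for promoters and tails was not made, since no sequences were used here. Replicates are separate cows. RefSeq, on assembly NIAB-ARS_B.indTharparkar, was used only for the names of overlapping genes.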

Additional observations from a re-analysis of the deposited data

Results flagged for a closer look

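In each group of 6 cows the highest and lowest value of each of the 10 subunits was compared with its nearest neighbour by Dixon's ratio. The ratio was taken on normalized counts and not on the log2 scale of the other tests. Of 20 groups tested 4 held a value far from the rest, and 3 of these 4 values belong to NP cow 22. Chance gives about 1 in 20 only for normally distributed values, and the 10 genes come from the same 12 libraries. On the log2 scale, relative to the NP mean, ITGAV was at 1.58 in NP cow 22 (next NP cow 0.26). In P cow 18, which was not flagged for ITGAV, it was at -4.16 (next P cow -1.98).

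ITGAV in NP cow 22 was 490.85 normalized counts, with the next NP cow at 195.95, and without that cow the log2 fold change went from -2.08 to -1.76 (limma adjusted p = 0.0138). ITGA6 in NP cow 22 was 1397.72, with the next at 947.75, and without that cow the fold change was -0.56, below the fold minimum (limma adjusted p = 0.0123). ITGA9 in NP cow 22 was 462.95, with the next at 278.37, and without that cow the fold change went from -0.53 to -0.36 (limma adjusted p = 0.183). ITGA2 in P cow 18 was 12.34, with the next P cow at 5.94, a value that rests on 6 reads (95% exact Poisson interval 2.20 to 13.1 reads).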

How the results depend on the processing

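Of 216 values of single subunits under alternative settings, 196 kept their direction and their side of the threshold, 12 lost a call, 5 gained one and 3 changed sign. The 3 were ITGA5 with upper quartile scaling (-0.0078) and ITGB4 without P cows 01, 18 and 28 (-0.0087) and with the library total (log2) as a covariate (-0.085), none of them a DEG. Of 144 partner ratios 130 kept their call, 11 lost it and 3 gained it. Without P cows 01, 18 and 28 the counts were 1408 DEGs over all genes, 1 subunit, 15 genes of the adhesion lists and 0 partner pairs, where 3 against 6 cows leave too few permutations for 1 pair alone to pass. With the library total as a covariate they were 510 DEGs, 0 subunits (3 at an unadjusted limma p below 0.05) and 7 list genes, and since P cows hold the 3 smallest totals, depth and pregnancy cannot be told apart there. Without these 3 cows and NP cow 22, a setting chosen after the data were seen, they were 958, 1 and 10. Leaving out each cow in turn gave 2521 to 3561 DEGs, 3 to 6 subunits, 24 to 37 list genes and 3 to 5 pairs. edgeR with TMM, DESeq2, limma-voom, upper quartile scaling, both pseudocounts and both other filters each gave 4 subunits, and thinned libraries gave 5. Upper quartile scaling shifted the median of all genes by -0.04 on the log2 scale. Depth limits ITGA2 in all libraries, and ITGAV and ITGA1 in the smallest P libraries. The cause of these shifts was not tested. No paired analysis was possible because the cow numbers of P and NP cows are all different.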

Other observations

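Of 10 leukocyte markers 3 rose in P cows and none fell (30%, against 26.8% of all tested genes), with summed levels of 535 to 1359 normalized counts in NP and 819 to 1497 in P cows. CD8A, a coreceptor of cytotoxic T cells, rose from 36 ± 11.9 to 81 ± 33.9 (log2 fold change 1.12, limma adjusted p = 0.00879), CD3E, a chain of the T cell receptor complex, rose by 0.71 on the log2 scale (limma adjusted p = 0.0120) and NKG7, a protein of cytotoxic granules, by 0.86 (limma adjusted p = 0.0230), a call lost without P cow 18 or NP cow 22. ITGAL, the alpha chain of the leukocyte receptor for ICAM1, rose from 115 ± 38.8 to 187 ± 62.7 (log2 fold change 0.69, limma adjusted p = 0.0313), a gene chosen here after its values were seen, and the call was lost with upper quartile scaling and without any 1 of P cows 18 and 27 and NP cows 22, 30 and 32. Its beta chain ITGB2 was at 86 ± 28.2 and 103 ± 29.5 (log2 fold change 0.25, limma adjusted p = 0.453). The leukocyte chain ITGA4 was at 18.6 ± 12.3 and 10.8 ± 7.41 (log2 fold change -0.81, limma adjusted p = 0.202), and ITGAM, at 11.9 ± 5.63 and 7.80 ± 4.88, was below the filter. Without P cows 01, 18 and 28, CD8A was the only DEG of the 10 markers, beside 11.8% of all tested genes. ITGAL was then not a DEG (0.67, limma adjusted p = 0.0951).

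The epithelial keratin KRT18 was at a median of 8.97 normalized counts in NP cows and at 11.9 to 63.7 in P cows. It reached 30 only in P cows, so that it passed the filter through the group in which it is higher, and it is given as a value with no test. EPCAM stayed at or below 2.46 normalized counts and KRT19 at or below 19.6 in all cows. The list of 5 epithelial markers also held KRT8 and CDH1, whose values are not given here. The summed level of the list was 122 to 540 in NP and 204 to 878 in P cows.

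The high values of NP cow 22 were shared by several subunits. This cow was the highest of the NP cows for 5 of the 10 subunits (ITGA1, ITGA6, ITGA9, ITGAV and ITGB1) and the lowest for ITGA5, while NP cow 32 was the lowest for 4 (ITGA6, ITGAV, ITGB1 and ITGB4) and the highest for ITGB5.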
